A study of Rattus norvegicus with 10 samples.

Results

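The serpins, a family of protease inhibitors, were compared between the mammary glands of ACI rats (n = 5) and those of Brown Norway (BN) rats (n = 5). Every probe set that the platform annotation pairs with 1 gene symbol naming a serpin of clades A to I was taken, which gave 38 probe sets for 33 genes, of 31042 probe sets and 14217 genes tested. The ACI rats were ACI/SegHsd females and the BN rats came from the same supplier's Brown Norway colony. All rats of both strains carried a subcutaneous implant that released 17β-estradiol (E2) for 12 weeks from 9 weeks of age, and no untreated rats are among these arrays, so that each difference is between strains under E2. RNA of the whole gland of each rat was measured on 1 Affymetrix expression array, and values are log2 expression from GCRMA as deposited. The strains were deposited as separate sets of samples, so the strain and any difference in how those sets were handled cannot be told apart.

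Most serpins trap a serine protease by offering a reactive loop as bait; once the loop is cut, the serpin changes shape and holds the protease in an inactive complex. Clade A serpins are secreted relatives of antitrypsin and are made mainly by the liver, and some carry hormones instead of inhibiting proteases. Clade B serpins act mostly inside cells, where they guard leukocytes and epithelia against their own granule and lysosomal proteases. The remaining clades hold antithrombin (C), heparin cofactor (D), protease nexin (E), pigment epithelium-derived factor and antiplasmin (F), the C1 inhibitor (G), the collagen chaperone (H) and neuroserpin (I). In rodents the gene related to human antichymotrypsin has multiplied into the *Serpina3* cluster, and growth hormone is known to drive some of its genes in rat liver through STAT5, a transcription factor that prolactin activates in the mammary gland.

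Sequence upstream of 3 genes of the *Serpina3* cluster is shown. Of these, *Serpina3l* and *Serpina3n* differed between the strains in opposite directions, while *Serpina3m* was near background in both. *Serpina3c* had no entry among the promoters used. Each line gives 250 bases that end at the base before the annotated start, from RefSeq on the rat assembly GRCr8. This is a reference sequence that was not read from the rats measured, and differences in sequence between the strains were not examined. Capitals mark matches to TTCNNNGAA, the core to which STAT proteins bind, which reads the same on both strands.
Serpina3l, chr6:129062956-129063205, plus strand: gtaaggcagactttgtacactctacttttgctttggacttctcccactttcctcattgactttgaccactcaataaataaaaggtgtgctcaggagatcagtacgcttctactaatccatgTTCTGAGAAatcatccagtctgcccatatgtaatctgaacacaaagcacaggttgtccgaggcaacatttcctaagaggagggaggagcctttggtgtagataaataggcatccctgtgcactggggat
Serpina3n, chr6:129088142-129088391, plus strand: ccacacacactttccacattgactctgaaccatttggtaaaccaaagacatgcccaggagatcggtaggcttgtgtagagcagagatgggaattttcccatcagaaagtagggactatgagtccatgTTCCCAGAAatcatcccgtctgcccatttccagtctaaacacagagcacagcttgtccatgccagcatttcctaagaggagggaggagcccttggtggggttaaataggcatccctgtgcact
Serpina3m, chr6:128836840-128837089, minus strand: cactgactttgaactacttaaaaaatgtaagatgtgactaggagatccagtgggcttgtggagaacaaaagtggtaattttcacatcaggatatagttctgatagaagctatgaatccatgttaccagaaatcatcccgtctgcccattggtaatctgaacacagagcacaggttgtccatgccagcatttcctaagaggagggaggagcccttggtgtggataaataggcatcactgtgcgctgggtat

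The match began at -129 in *Serpina3l* and at -123 in *Serpina3n*, and a pairwise alignment set these positions against each other. Counted from 1 at the first base of the match in *Serpina3n*, *Serpina3l* differed by C4T and C5G, both in the spacer, and *Serpina3m* by C3A, which removes the match. The *Serpina3n* promoter shared 59.4% of aligned columns with that of *Serpina3l* and 74.1% with that of *Serpina3m*, and *Serpina3l* shared 67.8% with *Serpina3m*. Of 28 serpin promoters in the RefSeq table, 4 held TTCNNNGAA, those of *Serpina3l*, *Serpina3n*, *Serpina11* and *Serpinb9b*, against 7.67% of 33469 promoters of all genes. The estrogen response element, searched on both strands as GGTCA and TGACC with NNN between them, was in none of the serpin promoters and in 0.0239% of all. TATAAA, searched likewise, was in 4 serpin promoters, those of *Serpinb1a*, *Serpinb3*, *Serpinb7* and *Serpini2*, and in 12.9% of all. These matches describe letters in a window and were not tested as sites.

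A level under 4 is described as near background. The lowest value of the data, 2.23, was held by 30.6% to 33.3% of each array's probe sets. Arrays had medians of 3.35 to 3.53, and on the second principal component BN rats 4 and 5, at -49.85 and -90.72, lay apart from the other rats, at -5.44 to 49.18. In both strains the animal IDs begin with S for rats 1 to 3 and with H for rats 4 and 5 (ID series S and H), and what the letters mean is not stated in the sources used. All 6 markers of luminal epithelium were measured well above 4, with a list mean of 11.67 to 12.22 in ACI rats and 11.05 to 11.85 in BN rats, and 3 of the 6, *Krt18* at 1.02, *Epcam* at 0.74 and *Elf5* at 1.06 on the log2 scale, were called higher in ACI rats. Leukocyte markers were higher in BN rats: 5 of 5 measured B and plasma cell markers, 4 of 6 of T cells, 4 of 5 of macrophages and 2 of 3 of neutrophils were called there, where 9.12% of all genes were. Of the other marker lists, 1 of 6 basal and 1 of 5 cornified skin markers were called toward ACI, as were 8.29% of all genes. Toward BN, 2 of 3 endothelial, 1 of 4 fibroblast, 1 of 5 adipocyte and 1 of 5 liver markers were called. Limma called 0 of 4 mast cell and 0 of 4 skeletal muscle markers, with 1 and 2 at an unadjusted p under 0.05. The muscle markers varied widely between rats, with list means of 9.01 to 12.555 in ACI rats and 5.665 to 11.58 in BN rats. Their median difference, ACI minus BN, was 3.68 on the log2 scale, with *Myh1* alone the other way, at -0.26. In RNA of whole glands, a change in the number of cells of a type and a change in RNA per cell cannot be told apart.

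Under E2, ACI glands had the higher level of the secreted clade A genes *Serpina3c*, *Serpina3l* and *Serpina1* and of the intracellular clade B gene *Serpinb9*, and BN glands had the higher level of *Serpina3n*, *Serpinb1a*, *Serping1* and *Serpinb6a*. These 8 genes, taken by their representative probe sets, the ones with the highest mean over all 10 arrays, were called at an adjusted p under 0.05 from limma, and the other 25 were not. The background over all 14217 genes was 17.4% called, with 8.29% higher in ACI and 9.12% higher in BN. Of the 33 serpin genes 24.2% were called, 4 in each direction. By probe set, 10 of 38 were called, 5 in each direction, where 12.7% of all probe sets were called, 6.79% toward ACI and 5.87% toward BN. In the same 8 genes the strains did not overlap, against 8.3% of all genes with ACI above BN and 8.32% with BN above ACI. Log2 fold changes are ACI minus BN throughout, and every adjusted p of a gene is from limma with Benjamini-Hochberg adjustment over all probe sets. Within ID series S the calls were 2 toward ACI and 3 toward BN; within series H, with 2 rats per strain, they were 2 and 0 from limma, with 4 and 5 genes at an unadjusted p under 0.05.

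**Figure D1:**
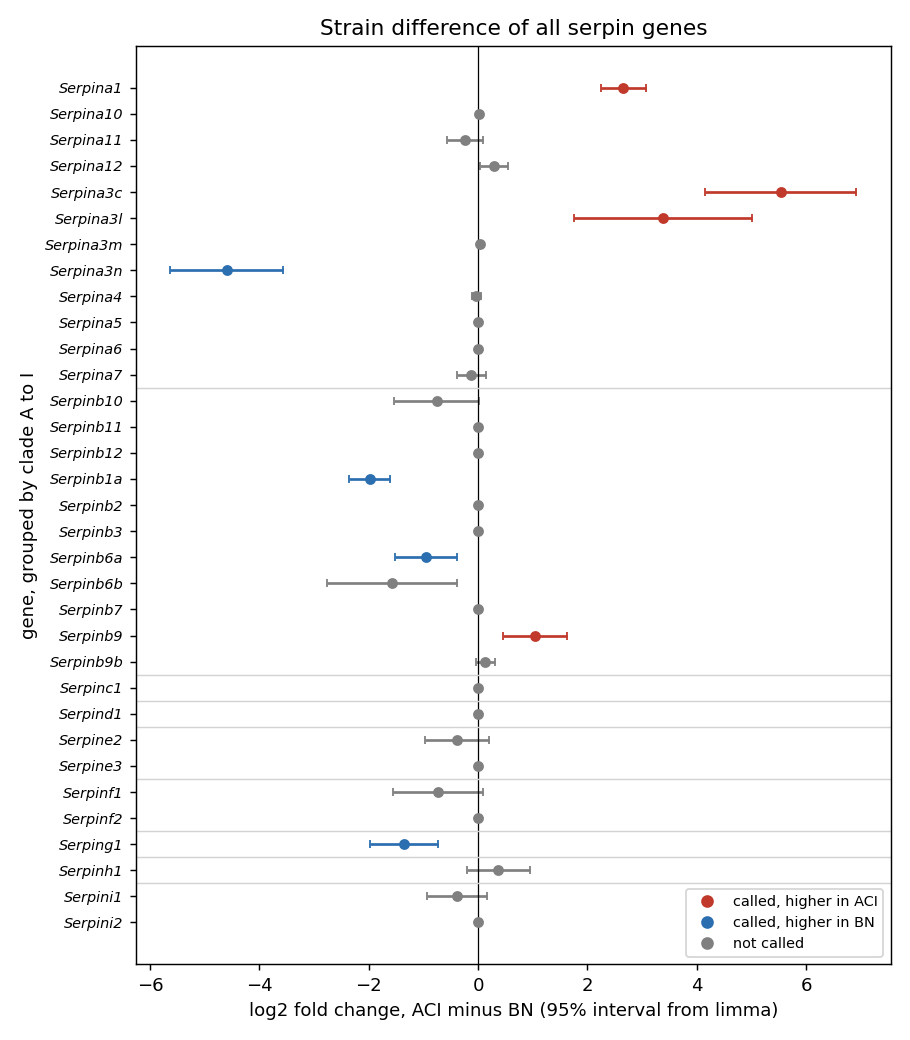
Log2 fold change, ACI minus BN (x axis), of the representative probe set of all 33 serpin genes (y axis, grouped by clade from A at the top to I at the bottom), with 95% intervals from limma; red marks genes called higher in ACI rats, blue those called higher in BN rats and grey those not called. *Serpina3c* at 5.53 and *Serpina3n* at -4.60 lie at opposite ends, and many genes lie at 0 because all rats were at background.

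Of the 12 clade A genes, 3 were higher in ACI and 1 was higher in BN, with a median log2 fold change of 0.01 over the clade. In clade B, 1 of 11 was called toward ACI and 2 toward BN, with a median of 0.00. In the 10 genes of clades C to I, 1 was called toward BN and none toward ACI, also with a median of 0.00, which was the median over all genes as well. At an unadjusted p under 0.05 from limma there were 5 genes in clade A, 4 in clade B and 1 in clades C to I. The clades were not tested against each other. They were alike in how many of their genes reached 4 in any rat, with 5 of 12 in clade A, 4 of 11 in clade B and 4 of 10 in clades C to I, whereas 71% of all genes did so.

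*Serpina3c* encodes a secreted protein known in the rat as the kallikrein-binding protein and as a growth hormone-regulated inhibitor. Its single probe set had log2 levels of 5.70, 8.77, 9.12, 8.33 and 8.38 in ACI rats 1 to 5, against 2.23, 2.72, 2.23, 2.73 and 2.72 in BN rats 1 to 5. ACI rat 1 lay well below the other ACI rats, and all BN rats were near background. The means were 8.06 ± 1.36 in ACI rats and 2.53 ± 0.27 in BN rats (SD, n = 5 each), a difference of 5.53 ± 0.604 on the log2 scale (± standard error, as for the differences below, adjusted p = 0.000796). With values under 4 set to 4, since levels near background have no reliable ratio, the level was at least 16.7-fold higher in ACI rats. The strains did not overlap (two-sided exact permutation test, p = 0.0079, which is the smallest p this design can give and was reached by each called serpin gene below).

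*Serpina3l*, which lies beside *Serpina3c* on chromosome 6, had 2.72, 6.25, 6.66, 6.14 and 6.30 in ACI rats 1 to 5, against 2.23 in each BN rat. ACI rat 1 was again the lowest, and here it was near background like the BN rats. The means were 5.61 ± 1.63 in ACI rats and 2.23 in BN rats, which differed by 3.38 ± 0.711 (adjusted p = 0.0166). With values under 4 set to 4, here also that of ACI rat 1, the level was 3.66-fold higher in ACI rats. The call was kept without ACI rat 1, where the log2 fold change was 4.11, but was lost in ID series S, to which that rat belongs (2.98, adjusted p = 0.213). *Serpina3c* and *Serpina3l* are close relatives, probe sequences were not examined, and how far each probe set also reads the other transcript was not tested. The probe set of *Serpina3m*, another gene of the cluster, did not exceed 2.31 in any ACI rat or 2.23 in any BN rat.

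*Serpina3n* encodes a secreted inhibitor whose mouse counterpart blocks granzyme B and leukocyte elastase. It went the other way: its single probe set had 7.18, 5.77, 5.32, 6.44 and 4.88 in ACI rats 1 to 5, against 9.90, 10.47, 10.80, 11.15 and 10.28 in BN rats 1 to 5. Every rat was above background, and the highest ACI rat, rat 1, remained below the lowest BN rat. The means were 5.92 ± 0.911 in ACI rats and 10.52 ± 0.48 in BN rats (SD, n = 5 each), a log2 fold change of -4.60 ± 0.449 (adjusted p = 0.000476), so that the level was 24.3-fold lower in ACI rats. Within ID series S it was -4.30 (adjusted p = 0.018) and within series H -5.06 (adjusted p = 0.227).

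ACI rat 1 thus had the lowest *Serpina3c* and *Serpina3l* and the highest *Serpina3n* of the ACI rats. On the marker lists that rat had the lowest mean of the ACI rats for skeletal muscle, 9.01 against 11.06 to 12.56, and the highest for adipocytes, 10.09 against 8.92 to 9.62. It was also the highest ACI rat for luminal (12.22), basal (8.30), endothelial (7.97) and T cell markers (5.38). For neutrophil markers it was the lowest (3.02). The part of these cell types in its serpin values was not tested.

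*Serpina1* encodes antitrypsin, the main circulating inhibitor of neutrophil elastase. It had 5.25, 5.18, 5.05, 5.33 and 5.53 in ACI rats 1 to 5, against 2.61, 2.49, 2.47, 2.25 and 3.23 in BN rats 1 to 5. The ACI values lay close together and the BN values were near background. The means were 5.27 ± 0.179 in ACI rats and 2.61 ± 0.37 in BN rats (SD, n = 5 each), with a log2 fold change of 2.66 ± 0.179 (adjusted p = 8.03e-05), or at least 2.41-fold with values under 4 set to 4. Of 5 liver markers, which mark the main source of clade A serpins, *Apoa1*, *Apob*, *Ttr* and *Fga* averaged between 2.23 and 2.32 in both strains, at background. *Alb*, the albumin gene, averaged 8.42 in ACI rats and 12.21 in BN rats.

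*Serpina12*, which encodes vaspin, a protein of fat tissue, was the remaining clade A gene above background, at 5.57 ± 0.113 in ACI rats and 5.28 ± 0.227 in BN rats (SD, n = 5 each). Its log2 fold change was 0.29 (95% interval 0.04 to 0.54, adjusted p = 0.145), and the strains overlapped. The other 7 clade A genes, *Serpina3m*, *Serpina4*, *Serpina5*, *Serpina6*, *Serpina7*, *Serpina10* and *Serpina11*, were near background in every rat. They include the genes of the hormone carriers for corticosteroids (*Serpina6*) and thyroxine (*Serpina7*).

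**Figure D2:**
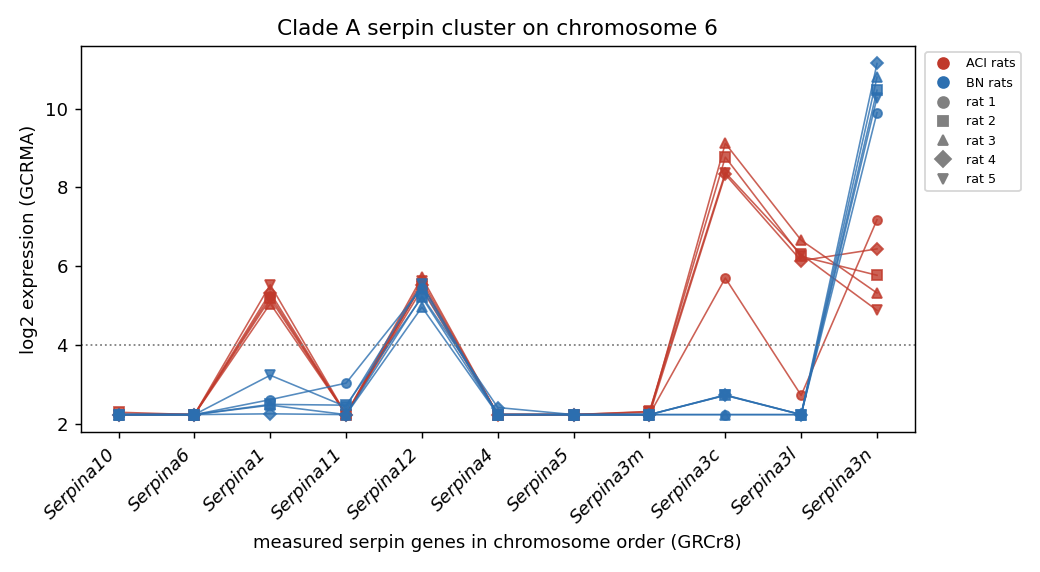
Log2 expression (y axis) of the 11 measured clade A genes of chromosome 6 (x axis, in chromosome order on GRCr8), with 1 line per rat, ACI in red and BN in blue. In *Serpina3c* and *Serpina3l* all ACI rats stand above the BN rats, rat 1 the least, and in *Serpina3n* all BN rats stand above the ACI rats, while the genes at 2.23 are at background in both strains.

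All clade A genes other than *Serpina7* lie in 1 cluster on chromosome 6, in which the called genes ran *Serpina1*, *Serpina3c*, *Serpina3l*, *Serpina3n*. The last of these, higher in BN rats, is thus the next measured gene after 2 that were higher in ACI rats. Of the 5 measured genes on each side of the cluster, 2 of 10 were called and 8 were not, where 17.4% of all genes were called. *Ifi27*, on the side of *Serpina10*, had a log2 fold change of 0.73 (adjusted p = 0.0197), and its neighbour *Ifi27l2b* had -0.998 (adjusted p = 0.0103).

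*Serpinb1a* encodes an intracellular inhibitor of neutrophil elastase, cathepsin G and proteinase 3. It had 8.70, 8.94, 8.91, 8.60 and 8.89 in ACI rats 1 to 5, against 11.35, 10.86, 10.67, 10.55 and 10.50 in BN rats 1 to 5. All values were well above background and the spread within each strain was small beside the difference. The means were 8.81 ± 0.15 in ACI rats and 10.79 ± 0.344 in BN rats (SD, n = 5 each), a log2 fold change of -1.98 ± 0.164 (adjusted p = 0.000202), or 3.94-fold lower in ACI rats. A second probe set had -1.35 (adjusted p = 0.0145), also without overlap. In that probe set BN rats 4 and 5 were the highest of the BN rats, at 6.75 and 7.17 against 5.70 to 6.43. In the first probe set they were the lowest. Of the neutrophil markers, whose list mean was 3.02 to 4.16 in ACI rats, the mean was 5.11 and 5.21 in BN rats 4 and 5 and 7.51 to 8.98 in BN rats 1 to 3. Their part in the *Serpinb1a* difference was not tested.

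*Serpinb6a*, whose human counterpart inhibits cathepsin G, had 10.31, 10.03, 9.88, 10.11 and 10.14 in ACI rats 1 to 5, against 11.41, 11.41, 11.53, 10.53 and 10.39 in BN rats 1 to 5. BN rats 1 to 3 were clearly above all ACI rats, whereas BN rats 4 and 5 lay just above the highest of them. The difference was -0.96 ± 0.248 on the log2 scale (adjusted p = 0.0383). It was -1.38 within ID series S (adjusted p = 0.0076) and -0.34 within series H (adjusted p = 0.267). The difference between the series, -1.04, passed the test (adjusted p = 0.0373 from a limma interaction term), as it did in 3.01% of all genes. Of 10 fits with 1 rat removed, 8 lost the call, those without any ACI rat or without BN rat 1, 2 or 3, with adjusted p up to 0.0919.

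*Serpinb6b*, on the same chromosome as *Serpinb6a*, had 7.33, 8.42, 8.57, 7.96 and 8.18 in ACI rats 1 to 5, against 10.83, 10.07, 7.88, 9.84 and 9.72 in BN rats 1 to 5. BN rat 3 lay among the ACI rats and the other BN rats lay above them all. The log2 fold change was -1.58 (95% interval -2.77 to -0.39, adjusted p = 0.0913), which did not pass the test. Without BN rat 3 it was -2.02 and passed (adjusted p = 0.00629), and with all rats kept it passed when probe sets averaging under 4 were not tested (adjusted p = 0.0237) and when arrays were centred on the median of probe sets above 4 (adjusted p = 0.0463). BN rat 3 also had the lowest B and plasma cell mean of the BN rats, 5.19 against 8.95 to 9.82, and the lowest T cell mean, 5.73 against 8.01 to 8.91. ACI rats ran from 3.03 to 3.23 and from 4.70 to 5.38 on these lists. Their part in the *Serpinb6b* values was not tested.

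*Serpinb9* encodes an inhibitor of granzyme B that protects cytotoxic cells and their neighbours. It was higher in ACI rats, at 11.06, 11.16, 11.63, 11.61 and 11.89 in ACI rats 1 to 5, against 10.99, 10.66, 9.79, 10.56 and 10.13 in BN rats 1 to 5. The lowest ACI rat and the highest BN rat were only just apart. The difference was 1.04 ± 0.255 on the log2 scale (adjusted p = 0.0312), or 2.06-fold. The call was lost without ACI rat 3, 4 or 5 and without BN rat 2, 4 or 5 (adjusted p up to 0.0796) and within both ID series, at 0.80 in series S (adjusted p = 0.289) and 1.41 in series H (adjusted p = 0.235). A second probe set had 1.35 (adjusted p = 0.0129), also without overlap. All 5 B and plasma cell markers and 5 of 6 T cell markers had the opposite direction, and the sixth T cell marker, *Cd8a* of cytotoxic T cells, had 0.10 (adjusted p = 0.728). Their part in the *Serpinb9* difference was not tested.

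**Figure D3:**
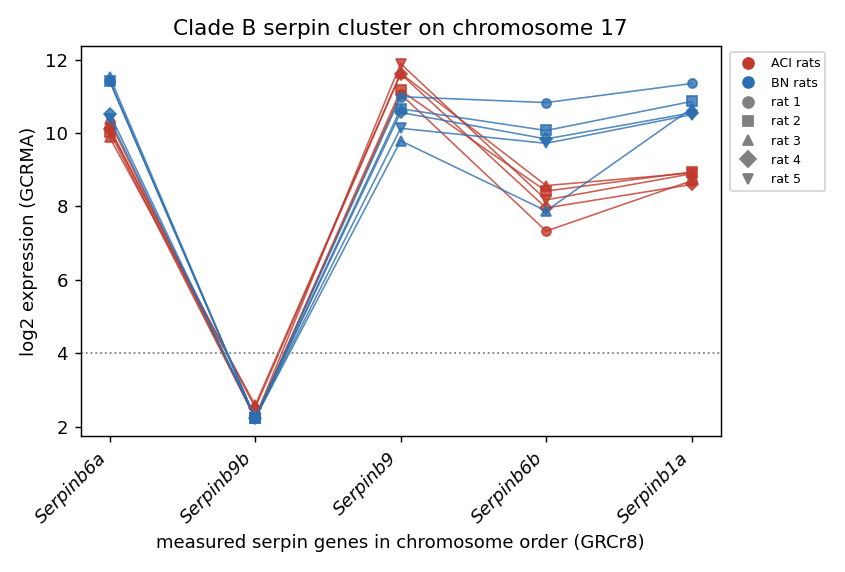
Log2 expression (y axis) of the 5 measured clade B genes of chromosome 17 (x axis, in chromosome order on GRCr8), with 1 line per rat, ACI in red and BN in blue. ACI rats stand higher in *Serpinb9* and BN rats in *Serpinb6a* and *Serpinb1a*, BN rat 3 falls among the ACI rats in *Serpinb6b*, and *Serpinb9b* is at background.

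Clade B genes lie on 2 chromosomes. Those on chromosome 17 are *Serpinb6a*, *Serpinb9b*, *Serpinb9*, *Serpinb6b* and *Serpinb1a*, of which 3 were called, in both directions, and only *Serpinb9b* was near background. Of 12 other measured genes in and beside this cluster, 2 were called and 10 were not. Both counts are read beside the 17.4% of all genes called. *Nqo2*, the next measured gene after *Serpinb6a*, had a log2 fold change of -2.57 (adjusted p = 0.00124) and *Bphl* had 1.40 (adjusted p = 0.0149). The 6 genes on chromosome 13, *Serpinb2*, *Serpinb3*, *Serpinb7*, *Serpinb10*, *Serpinb11* and *Serpinb12*, did not reach 4 in any rat, and 4 of 5 cornified skin markers, of a tissue in which several of them are known, were likewise near background. The remaining marker, *Krt10*, was called higher in ACI rats, at 6.78 against 5.33 in BN rats (log2 fold change 1.45, adjusted p = 0.0241). *Serpinb10* was at 2.23 in each ACI rat, against 3.55, 3.96, 2.97, 2.23 and 2.23 in BN rats 1 to 5, with a log2 fold change of -0.76 (adjusted p = 0.211); in ID series S minus series H its difference was -1.26 (adjusted p = 0.128).

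*Serping1* encodes the C1 inhibitor, which blocks the proteases that start the classical complement pathway and the contact system. It had 10.03, 9.80, 9.27, 9.14 and 9.02 in ACI rats 1 to 5, against 10.93, 10.75, 11.51, 10.41 and 10.47 in BN rats 1 to 5. BN rat 3 was the highest and ACI rat 5 the lowest, and the strains did not overlap. The means were 9.45 ± 0.439 in ACI rats and 10.81 ± 0.443 in BN rats (SD, n = 5 each), a log2 fold change of -1.36 ± 0.272 (adjusted p = 0.0132), or 2.57-fold lower in ACI rats. It was -1.36 within both ID series, where it did not pass (adjusted p = 0.0563 in series S and 0.0832 in series H). The macrophage and fibroblast lists also had their highest means in BN rat 3, 10.02 and 12.00. Macrophage means were 7.80 to 8.34 in ACI rats and 8.93 to 10.02 in BN rats. Fibroblast means overlapped, at 10.33 to 10.52 in ACI rats and 10.345 to 12.00 in BN rats. BN rat 3 also had the highest luminal and basal means of the BN rats, 11.85 and 8.095. The part of these cell types in the *Serping1* difference was not tested.

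Of the other clades, 3 genes were above background and not called. *Serpinh1* encodes the collagen chaperone of the endoplasmic reticulum and was at 10.72 ± 0.391 in ACI rats and 10.34 ± 0.423 in BN rats (SD, n = 5 each), with a log2 fold change of 0.37 (95% interval -0.20 to 0.95, adjusted p = 0.45). This rests on a probe set whose suffix marks a match to several transcripts, and a second probe set was near background. *Serpinf1*, which encodes pigment epithelium-derived factor, a secreted serpin that inhibits vessel growth and not proteases, was at 9.16 ± 0.374 in ACI rats and 9.88 ± 0.735 in BN rats (SD, n = 5 each), with -0.73 (95% interval -1.55 to 0.10, adjusted p = 0.266). *Serpine2*, which encodes protease nexin, an inhibitor of thrombin and plasminogen activators, was at 7.20 ± 0.422 in ACI rats and 7.58 ± 0.414 in BN rats (SD, n = 5 each), with -0.38 (95% interval -0.97 to 0.21, adjusted p = 0.446). The strains overlapped in each of these 3 genes.

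**Figure D4:**
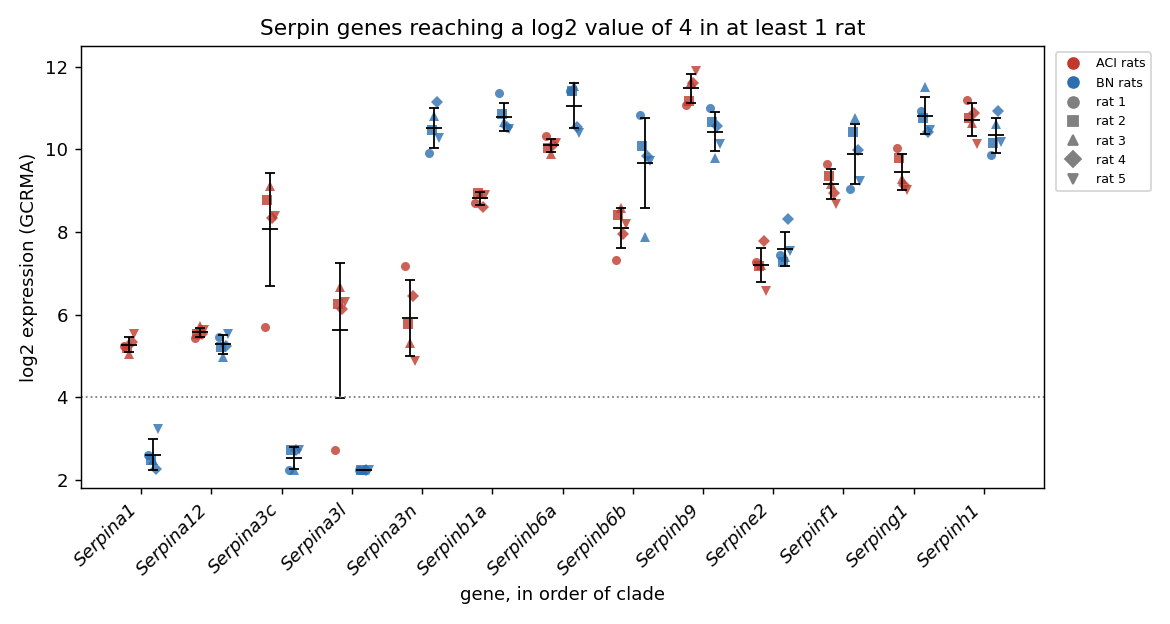
Log2 expression (y axis) of the 13 serpin genes that reached 4 in at least 1 rat (x axis, in order of clade), by representative probe set, in each ACI rat (red) and BN rat (blue); bars show mean ± SD and the dotted line marks 4. ACI rat 1 stands apart in *Serpina3c* and *Serpina3l*, and BN rat 3 in *Serpinb6b*.

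The other 20 serpin genes, 7 in clade A, 7 in clade B and 6 in clades C to I, were near background in every rat, and 11 of them held a single value on all 10 arrays. Those of clades C to I were *Serpinc1* (antithrombin), *Serpind1* (heparin cofactor), *Serpine3*, *Serpinf2* (antiplasmin), *Serpini1* (neuroserpin) and *Serpini2*. At this level a strain difference is hard to detect, and limma called none of these genes with all rats kept. Without BN rats 4 and 5, *Serpinb10* was called higher in BN rats.

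Proteases and partners of these inhibitors were counted in lists. Of 6 measured genes of plasminogen activation only *Plat*, the tissue plasminogen activator gene, was called, at 6.54, 7.59, 7.99, 7.78 and 7.23 in ACI rats 1 to 5, against 8.65, 8.88, 9.82, 9.69 and 8.96 in BN rats 1 to 5 (log2 fold change -1.77, adjusted p = 0.0104). Of 11 coagulation and contact genes, *F3*, the tissue factor gene, at -2.18 (adjusted p = 0.000224) and *Procr*, the protein C receptor gene, at -1.90 (adjusted p = 0.00103) were higher in BN rats, and 9 were not called. Of 5 complement proteases only *C1s*, a target of the C1 inhibitor, was called, also toward BN, at -0.76 (adjusted p = 0.00341). Its partner *C1r* had -0.37 (adjusted p = 0.107).

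Of 15 listed granule serine proteases, 10 were measured, and 5 of these stayed under 4 in every rat. *Elane*, the neutrophil elastase gene, was among those not measured. Among the 10 measured, only *Gzma*, the granzyme A gene, was called, toward ACI, at 1.64 (adjusted p = 0.00176). *Gzmb*, whose product *Serpinb9* inhibits, had 0.91 (adjusted p = 0.259). Among 9 epithelial serine proteases, *Prss8*, the prostasin gene, was higher in ACI at 1.33 (adjusted p = 0.00523) and *Htra1*, a secreted protease of the matrix, higher in BN at -1.54 (adjusted p = 0.000506). Of 6 cysteine proteases, *Ctsk* at -3.06, *Ctsl* at -1.11 and *Casp1* at -1.09 were higher in BN and *Ctsh* at 0.86 in ACI. The first 3 were called with adjusted p = 0.00207, 0.00343 and 0.0486 and *Ctsh* with 0.00308.

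Of 8 clearance receptors and cofactors 1 was called, *Sdc4*, a heparan sulfate proteoglycan gene, at 0.97 (adjusted p = 0.0249). Of 9 collagen clients and partners of *Serpinh1*, *Col5a1* alone was called, at -1.13 (adjusted p = 0.021), and the list median was -0.74. Of 11 other circulating inhibitors and acute phase genes, 1 was higher in ACI, *Orm1*, the orosomucoid gene, at 7.64 (adjusted p = 1.09e-05), and 3 were higher in BN. These were *Lcn2*, the lipocalin gene, at -8.35 (adjusted p = 2.19e-05), *A2m*, the macroglobulin gene, at -2.05 (adjusted p = 0.0241) and *Cp*, the ceruloplasmin gene, at -1.88 (adjusted p = 0.000254). *Agt*, the angiotensinogen gene, a serpin by fold whose symbol does not name it one, had -0.64 (adjusted p = 0.164). Of 6 measured genes of the STAT3 route *Stat3* itself was called, at -0.54 (adjusted p = 0.0151). In all of these lists the share called is read beside the 17.4% of all genes.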

How the data were processed

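Log2 expression per probe set was used as deposited: per the submitters' processing notes the authors made these values with GCRMA 2.18.1, which corrects background by probe sequence and normalizes between arrays. The sources used do not state whether both strains were normalized jointly. The table held 31099 probe sets on 10 arrays, and 57 control probe sets were left out. Symbols came from the platform annotation, updated by gene ID from a RefSeq table of GRCr8 (20758 of 20826 probe sets with 1 symbol matched). The fit was limma 3.58.1 in R 4.3.3 with 1 term, strain, tested on simulated data; the exact permutation test took all 252 arrangements of 5 rats against 5. Precision is limited by the 5 arrays per strain, and whether rats were housed or handled as separate batches is not stated.

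Members, lists and alternatives were chosen with earlier results of these data known. Named genes were all members, those called with each rat's value, and up to 4 called genes of a protease or partner list in each direction. Cell type markers were mostly counted, and not every called marker is named. *Serpinb6b* and *Serpinb10* are given by rat. *C1r*, *Gzmb*, *Elane*, *Agt*, the named markers that were not called, the genes beside the clusters and the motifs were chosen afterwards. Alternatives covered blocks, subsets of rats, filters, scalings, tests and probe set rules. The labels give the strain of each BN sample as Brown Norway, although their RNA protocol speaks of ACI rats.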

Additional observations from a re-analysis of the deposited data

Results flagged for a closer look

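*Serpina3c* in ACI rat 1 was 5.70, with the other ACI rats at 8.33 to 9.12, and *Serpina3l* in the same rat was 2.72, with the others at 6.14 to 6.66; each value was far from its group by Dixon's test. *Serpine2* in BN rat 4 was 8.30, with the other BN rats at 7.26 to 7.54, and was far from its group likewise. Of 27 groups of 5 rats tested in this way, chance alone would set about 1 in 20 apart. The strain difference of *Serpinb6a* was larger in ID series S than in series H, with a difference of -1.04 (adjusted p = 0.0373 from a limma interaction term).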

How the results depend on the processing

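Of the 4 serpin genes called higher in ACI rats, 2 were called with the replicate block, within ID series S and without BN rats 4 and 5 (*Serpina3c* and *Serpina1* each time), 2 within series H (*Serpina3c* and *Serpina3l*), 2 when probe sets averaging under 4 were not tested, a filter that removes *Serpina1* and *Serpina3l*, and 1, *Serpina1*, with the lymphocyte lists as a covariate. Leaving out 1 rat gave 3 to 4. Of the 4 called higher in BN rats, 0 were called by limma within series H and 0 with the lymphocyte covariate, with 5 of all 33 serpin genes lower in ACI at an unadjusted p under 0.05 in each, and leaving out 1 rat gave 3 to 4. The replicate block gave 3, without *Serpinb6a*; same-numbered rats shared only a number, since their deviations from the strain means correlated at -0.25 to 0.23 and 1 of 10 rats correlated best with its own number. Over all probe sets 3930 were called, against 1926 with the block, 100 within series H, 931 with the covariate, 6350 without BN rats 4 and 5 and 2598 without ACI rat 4. The covariate, 4.02 to 4.37 in the ACI strain and 5.48 to 9.32 in the BN strain, did not overlap between strains, so the strain term then extrapolates. The genes that lost their call with it had log2 fold changes of 5.53 (*Serpina3c*), 3.02 (*Serpina3l*), 2.05 (*Serpinb9*), -4.97 (*Serpina3n*), -2.20 (*Serping1*), -1.66 (*Serpinb1a*) and -1.47 (*Serpinb6a*). Both counts stayed within 1.5 times under each other alternative; the floor at 4, quantile normalization, Student's test and the mean over probe sets gave 4 and 4. Genes that were not called could reverse: *Serpinb6b* had 1.09 with the covariate, and *Serpinh1* -0.06 within series H, -0.074 without suffixed probe sets, which leaves its probe set near background, and -0.0264 with the covariate. Levels near 2.23 limit what can be seen in 20 of the 33 genes.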
